A study of Homo sapiens with 3 samples.

Results

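The proteasome and chaperonin subunit genes were followed by RNA sequencing of HEK293, a widely used human cell line that was started from the kidney of an embryo. There were 3 libraries. Members were the gene symbols PSMA to PSMG followed by a number, CCT2 to CCT8 (with CCT6A) and TCP1, whatever their counts. This gave 56 of 26485 gene names: 8 chaperonin subunits, 20 regulatory cap genes (PSMC and PSMD), 19 core genes (PSMA and PSMB) and 9 other proteasome genes (PSME, PSMF and PSMG). The libraries form 1 group, with no treatment or genotype change named in the labels, of cells kept in DMEM with 10% fetal calf serum, and are called replicates 1, 2 and 3. No contrast between conditions exists. Whether they are separate cultures is not stated, so the spread between them, and any p-value made from it, may be technical. Per the labels' protocols, ribosomal RNA was removed from total RNA and the library kit kept the strand of the RNA.

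The proteasome is the protease of the ubiquitin pathway. Its core is a barrel of stacked alpha and beta rings, with the proteolytic sites on beta subunits inside, and the regulatory cap binds ubiquitin-tagged proteins, removes the tag, unfolds them with a ring of ATPases and feeds them in. The chaperonin TRiC, also called CCT, is a double ring of related subunits that folds actin, tubulin and other proteins. Both are general housekeeping complexes of dividing cells, and their subunits are made from separate genes scattered over the genome. Chromosome 14 carried 8 members and chromosome 17 carried 7.

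Gene-assigned counts were 412066, 483114 and 289241 in replicates 1, 2 and 3, which was between 1.76% and 2.48% of all records, and between 90.6% and 91.5% of records fell in no annotated feature. A single count equalled 2.29, 2.31 and 3.30 CPM (counts scaled to 1000000 per normalised library size) in replicates 1, 2 and 3. A count of 0 allows a level of up to 6.86 CPM in replicate 1, 6.92 CPM in replicate 2 and 9.89 CPM in replicate 3, each equal to 3 counts. These floors, and the intervals below, cover counting error only. Replicate 2 stood apart: the common biological coefficient of variation was 0.178 for replicates 1 and 3, against 0.317 for replicates 1 and 2 and 0.292 for replicates 2 and 3. Of 9 genes listed as HEK293 markers, 7 had counts, summing to 82, 61 and 62, and PAX2 and LHX1 had none. The 4 blood markers summed to 5, 4 and 4 counts and the 2 liver markers had none. The library kit kept strand, but how the read counter treated it is not stated, and whether the tables were counted on the intended strand was not tested. Names with an exon opposite were 31.8% of matched names and held 82.6% ± 1.11 (SD, n = 3) of their counts. All values below, zeros included and for members with or without a gene opposite, are therefore counts under gene names and may not be levels of the genes' own transcripts. In bulk RNA, fewer expressing cells and less RNA per cell cannot be told apart.

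A single gene, TCP1, held most of the counts of the whole group. Member names took 1448, 1286 and 1095 counts in replicates 1, 2 and 3, or 0.332% ± 0.0586 (SD, n = 3) of gene-assigned counts. The Wilson 95% interval of this share was 0.334% to 0.370% for replicate 1, 0.252% to 0.281% for replicate 2, the lowest, and 0.357% to 0.402% for replicate 3. TCP1 alone accounted for 79.2%, 82.0% and 79.2% of these counts in the same libraries. The other 55 genes together had 301, 232 and 228 counts, and TCP1 was 4.54 times their sum in replicate 2, the largest of the 3 ratios.

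Detection was complete for the 8 chaperonin members and partial for the proteasome. CCT6B, a related chaperonin gene that the symbol rule leaves out, had no count. The core set keeps the germ-line PSMA8, the thymus-specific PSMB11 and the interferon-induced PSMB8, PSMB9 and PSMB10. At least 1 count in every library was found for 8 of 8 chaperonin, 6 of 20 regulatory cap, 5 of 19 core and 2 of 9 other proteasome genes. Over all gene names the share reaching this level was 29.2%, and it was 33.3% over protein-coding names. The shares of cap and core genes lay near this background. Over all members, 21 of 56 had a count in every library, 16 in exactly 2 libraries, 8 in exactly 1 and 11 in none. A count in any library was found for 45, against a background of 54.7% of all names and 62.7% of protein-coding names. The level of 10 counts in every library was reached by 5 members, TCP1, CCT5, CCT8, PSMA3 and PSMD7. This was 8.93% of the 56, against 9.68% of all names and 10.6% of protein-coding names. The median member had 6 counts over the 3 libraries together, against 1 count for the median of all gene names and 2 for that of protein-coding names.

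**Figure D1:**
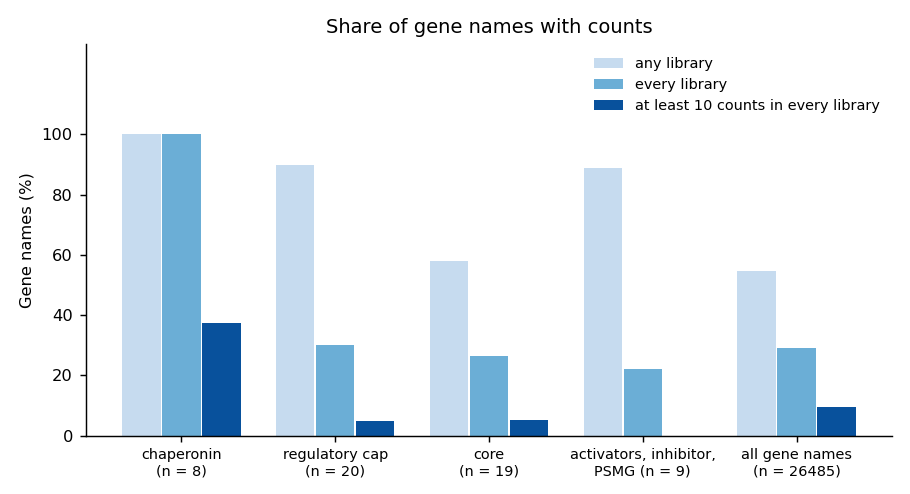
Percentage of gene names with a count in any library, in every library, and with at least 10 counts in every library, for the 4 classes of subunit genes and for all 26485 gene names. All 8 chaperonin genes had a count in every library, whereas 6 of 20 cap and 5 of 19 core genes did, beside 29.2% of all names.

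Sequences upstream of the RefSeq transcription start are shown for the 5 members that reached 10 counts in every library, with PSMA5, an alpha subunit with no count, beside them. They come from RefSeq promoter windows (GRCh38.p14, 250 bases before to 50 after the start), which matched 49 of the 56 members. CCT6A, PSMA7, PSMB1, PSMB6, PSMB7, PSMD4 and PSMG3 had no entry. Each line is the longest stretch of the 250 upstream bases without an annotated exon of a protein-coding gene, 5′ to 3′ on the strand of the gene. The stretch ends 147 bases from the RefSeq start for TCP1, 149 for CCT8, 39 for PSMD7 and 12 for PSMA3, and at the start for CCT5 and PSMA5. The CCT5 stretch lies within the GENCODE gene, in an intron of transcripts that begin farther upstream. Capitals mark the matches, on either strand, to the motifs listed in the next paragraph.
TCP1 (chr6:159789750-159789811, minus strand): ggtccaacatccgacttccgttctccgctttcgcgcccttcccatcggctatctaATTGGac
CCT5 (chr5:10250446-10250536, plus strand): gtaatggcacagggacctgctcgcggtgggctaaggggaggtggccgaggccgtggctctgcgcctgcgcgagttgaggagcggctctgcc
CCT8 (chr21:29073798-29073898, minus strand): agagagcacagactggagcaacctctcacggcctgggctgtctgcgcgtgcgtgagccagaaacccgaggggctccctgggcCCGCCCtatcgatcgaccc
PSMA3 (chr14:58244593-58244830, plus strand): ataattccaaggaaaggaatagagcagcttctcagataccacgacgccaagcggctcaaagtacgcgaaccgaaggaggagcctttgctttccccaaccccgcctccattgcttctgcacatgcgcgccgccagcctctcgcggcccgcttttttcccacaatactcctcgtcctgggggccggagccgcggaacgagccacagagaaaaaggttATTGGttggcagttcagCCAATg
PSMD7 (chr16:74296564-74296774, plus strand): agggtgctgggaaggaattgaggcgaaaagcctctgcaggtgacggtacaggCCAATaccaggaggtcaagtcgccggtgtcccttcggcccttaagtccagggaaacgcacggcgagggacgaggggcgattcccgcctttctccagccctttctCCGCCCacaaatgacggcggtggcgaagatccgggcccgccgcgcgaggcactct
PSMA5 (chr1:109426449-109426698, minus strand): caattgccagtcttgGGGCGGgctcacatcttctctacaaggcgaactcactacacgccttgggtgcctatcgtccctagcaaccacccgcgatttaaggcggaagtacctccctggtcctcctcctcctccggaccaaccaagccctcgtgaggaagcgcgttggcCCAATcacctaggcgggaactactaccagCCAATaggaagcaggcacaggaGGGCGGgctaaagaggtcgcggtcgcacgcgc
The TCP1 stretch is the 62-base gap between the annotated exons of TCP1 and MRPL18, a mitochondrial ribosomal protein gene that runs the other way and had 0, 0 and 2 counts.

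Motif letters were searched on both strands of the full 300-base windows of all genes. A gene with several windows was scored as a match if any of them matched. The members are all protein-coding, but the background was not limited to such genes, and a protein-coding share was not computed. The shares below are therefore not like for like. TGACNNNGC, the core of the element bound by NFE2L1, which is known to raise proteasome gene transcription when proteasomes are inhibited, occurred in 16 of 49 members (32.7%), against 16.1% of 27305 genes with a window. It was found in 7 of 19 cap, 3 of 15 core, 1 of 7 chaperonin and 5 of 8 other proteasome genes. The paired heat shock element letters GAANNTTC or TTCNNGAA, read by the stress factor HSF1, occurred in TCP1, CCT2, CCT4, PSMB5, PSMD5 and PSMD6, which was 12.2% of members against 16.2% of all genes. CCGGAAG, a core of ETS factor sites, occurred in 32.7% of members and 12.2% of all genes, with 10 of the 16 in the cap. GGGCGG, the SP1 box, was in 69.4% of members and 48.3% of all genes, and CCAAT, the NF-Y box, in 49.0% of members and 39.7% of all genes. A match describes letters in the window and not a bound site. Within the printed stretches no 2 matches overlapped.

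TCP1, the alpha subunit of the chaperonin ring, lies on chromosome 6 from 159778498 to 159789749 on the minus strand (GENCODE 29, GRCh38). It received 1147, 1054 and 867 counts in replicates 1, 2 and 3, or 2622, 2430 and 2858 CPM. It ranked 28th of all gene names by summed counts. On the length-corrected scale its level was 535 ± 43.5 CPM per kilobase of merged exon (SD, n = 3). Among members the next on that scale was PSMD7 with 37.5 ± 4.65, a cap subunit.

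The other chaperonin subunits were far lower than TCP1. CCT5, the epsilon subunit on chromosome 5, received 16, 16 and 14 counts, and CCT8, the theta subunit on chromosome 21, received 19, 10 and 14. These counts correspond to 39.9 ± 5.44 CPM for CCT5 and 37.5 ± 12.6 CPM for CCT8 (SD, n = 3 each). CCT6A, the zeta subunit, received 12, 4 and 17 counts, and CCT7, the eta subunit, 12, 3 and 6. Both were lowest in replicate 2, as were CCT8, CCT4 and CCT2. The remaining subunits CCT4, CCT2 and CCT3 had between 3 and 9 counts in each library, with sums of 18, 14 and 13. Per kilobase of exon the 7 subunits other than TCP1 ran from 2.81 ± 0.494 CPM for CCT3, the lowest, to 11.2 ± 3.78 CPM for CCT8, the highest (SD, n = 3 each). Summed, these 7 had 75, 43 and 70 counts, or 0.0182%, 0.00890% and 0.0242% of gene-assigned counts, so replicate 2 was lowest. Each ring of the complex holds a single copy of every subunit.

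**Figure D2:**
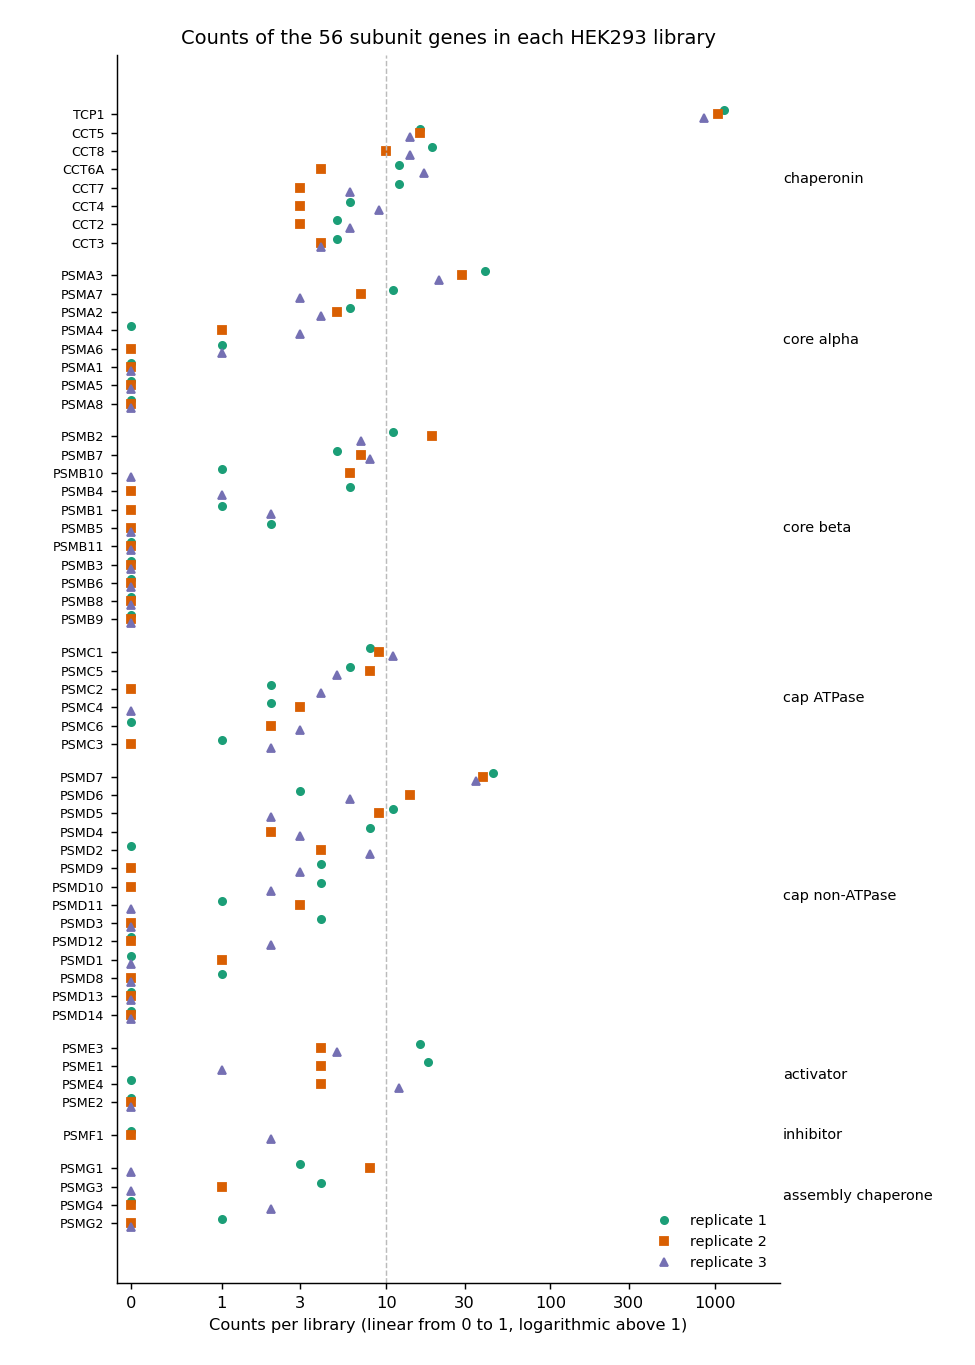
Counts in each library (horizontal axis, linear from 0 to 1 and logarithmic above 1) for the 56 subunit genes, grouped by role and ordered by summed counts; symbols are the 3 replicates and the dashed line marks 10 counts. TCP1 lies between 867 and 1147 counts, and every other gene lies at or below 45.

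In the regulatory cap, PSMD7 led. PSMD7, a lid subunit that forms a dimer with the deubiquitinase PSMD14, lies on chromosome 16 from 74296775 to 74306288. It received 45, 39 and 35 counts, or 102.9, 89.9 and 115.4 CPM, which made up 42.5% of all counts in the cap. PSMD14 itself had no count in any library. PSMD6, another lid subunit, had 3, 14 and 6 counts and was highest in replicate 2. PSMD5, a chaperone that helps assemble the base of the cap, had 11, 9 and 2 counts and was lowest in replicate 3. The related base assembly chaperones PSMD9 and PSMD10, which share the symbol but not a place in the finished cap, had sums of 7 and 6 counts. The ubiquitin receptor PSMD4 had 8, 2 and 3 counts. PSMD1 and PSMD2, the large scaffold subunits, had 0, 1 and 0 counts and 0, 4 and 8 counts. PSMD3, PSMD8, PSMD11 and PSMD12 had at most 4 counts in any library, and PSMD13 had none.

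All 6 ATPases of the cap had counts, but in small numbers. PSMC1 had 8, 9 and 11 counts and PSMC5 had 6, 8 and 5, the only ATPases with a count in every library. PSMC2, PSMC3, PSMC4 and PSMC6 had between 0 and 4 counts in each library. Their sum over the 6 genes was 19, 22 and 25 counts, against 81, 72 and 61 counts for the 14 PSMD genes. Per kilobase of exon, the ATPases averaged 2.15 ± 0.665 CPM and the PSMD genes 3.86 ± 0.523 CPM (SD, n = 3 each). The cap genes held 0.0141% ± 0.00320 of gene-assigned counts without PSMD7, against 0.0245% ± 0.00514 with it (SD, n = 3 each).

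The core was led by the alpha subunit PSMA3, on chromosome 14 from 58244831 to 58272012. It received 40, 29 and 21 counts, or 91.4, 66.8 and 69.2 CPM, and held 43.3% of the counts of all core genes. PSMA7 had 11, 7 and 3 counts and PSMA2 had 6, 5 and 4. PSMA4 and PSMA6 had at most 3 counts in any library. No count was found for PSMA1, PSMA5 or PSMA8, the last being the germ-line counterpart of PSMA7. The alpha ring is assembled from single copies of its subunits. Of the 7 somatic alpha genes, 2 had no count, which allows a level up to the floors given above.

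Among the beta genes PSMB2 led with 11, 19 and 7 counts, highest in replicate 2. PSMB7, which carries the trypsin-like site, had 5, 7 and 8 counts. The other catalytic subunits were PSMB5 (chymotrypsin-like) with 2, 0 and 0 counts and PSMB6 (caspase-like) with none. PSMB4 had 6, 0 and 1 counts, PSMB1 had 1, 0 and 2, and PSMB3 had none.

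Interferon-induced counterparts replace the catalytic subunits in the immunoproteasome, where PSMB8 takes the place of PSMB5, PSMB9 that of PSMB6 and PSMB10 that of PSMB7. PSMB8 and PSMB9 had no count, against 2, 0 and 0 for PSMB5 and none for PSMB6. PSMB10 had 1, 6 and 0 counts, against 5, 7 and 8 for PSMB7. PSMB10 had fewer counts than PSMB7 in the 3 libraries, but 6 against 7 counts in replicate 2 is too close to order them there. The other exchanges could not be ordered at this depth. The thymus-specific PSMB11 had no count.

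The activator genes of the core differed widely in counts. PSME3, the nuclear activator, had 16, 4 and 5 counts and was highest in replicate 1. PSME1, an interferon-induced activator subunit, had 18, 4 and 1 counts, whereas PSME2, its partner in the same ring, had none. PSME4, a large activator linked to histone breakdown, had 0, 4 and 12 counts. PSME1 and PSME4 thus ran in opposite orders over the libraries. PSMF1, an inhibitor of the core in vitro, had 0, 0 and 2 counts. The assembly chaperones of the alpha ring, PSMG1 to PSMG4, had 8, 9 and 2 counts in sum, of which PSMG1 supplied 3, 8 and 0.

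Classes were compared within each library by the mean level over all members, in CPM per kilobase of merged exon. The chaperonin averaged 72.0, 64.6 and 79.96 in replicates 1, 2 and 3, the cap 3.39, 2.83 and 3.82, and the core 3.65, 3.09 and 2.96. The mean of protein-coding names was 6.73 ± 0.0801 (SD, n = 3) on the same scale. The log2 ratio of chaperonin over core was 4.48 ± 0.24, and that of chaperonin over cap was 4.44 ± 0.07 (SD, n = 3 each). Each was above 0 in 3 of 3 libraries, and the exact two-sided sign-flip permutation test gave p = 0.25, the smallest it can give with 3 libraries. These ratios rest on TCP1. Without it the log2 ratio of chaperonin over core was 0.82 ± 0.70 and over cap 0.78 ± 0.46 (SD, n = 3 each), with the same p of 0.25 by the exact permutation test. Over members with no opposite-strand exon, which also leaves out TCP1, the log2 ratio over core was 0.58 ± 0.77 (SD, n = 3; exact sign-flip permutation p = 0.5) and was -0.23 in replicate 2. With TCP1 alone left out, replicate 2 gave the smallest log2 ratios, 0.14 over core and 0.27 over cap. The log2 ratio of cap over core was 0.05 ± 0.28 (SD, n = 3; exact sign-flip permutation p = 1), with values of -0.11, -0.13 and 0.37 in replicates 1, 2 and 3. Its sign depended on the summary used and on which genes and libraries were kept. It was 1.27 for the median over members (log2 of CPM per kilobase plus a pseudocount of 0.5) and 0.39 with no length term, above 0 in 3 of 3 libraries in both. It was -0.25 per kilobase of coding sequence, -1.20 over members with no opposite-strand exon, -0.42 without TCP1, PSMD7 and PSMA3, and -0.12 without replicate 3.

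**Figure D3:**
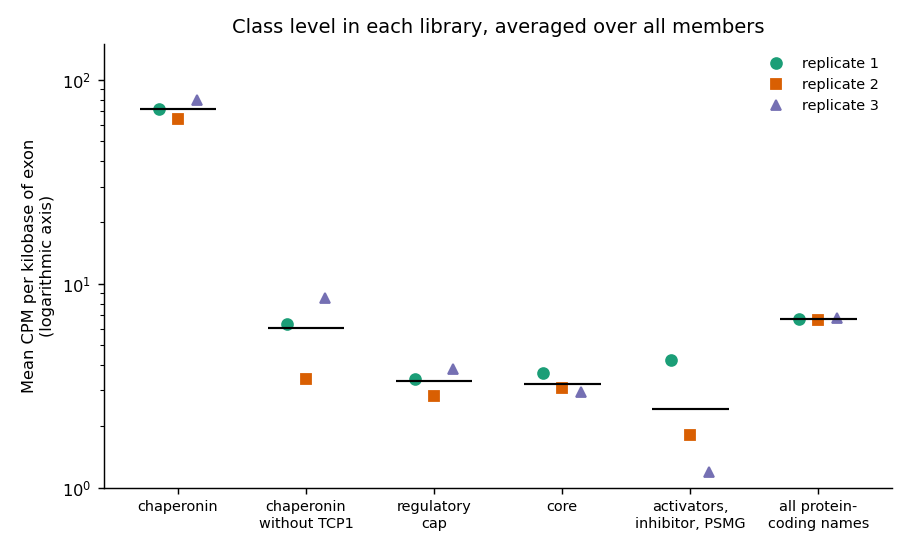
Mean CPM per kilobase of merged exon over all members of a class in each library (logarithmic axis), with the mean of the 3 libraries as a bar; all protein-coding names are shown for comparison. The chaperonin lies between 64.6 and 79.96, and without TCP1 between 3.41 and 8.56, while cap and core lie between 2.83 and 3.82.

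Differences between replicates beyond counting noise were tested with edgeR's Poisson fit over the 2564 genes that had 10 or more counts in each library. Of the 5 members in that set, only TCP1 passed (adjusted p = 0.00636, Benjamini and Hochberg), and 45.8% of all tested genes passed. The differences in TCP1 were small, between 2430 CPM in replicate 2 and 2858 CPM in replicate 3, and its coefficient of variation beyond counting noise was 0.0749. The edgeR test no longer called TCP1 without replicate 2 (adjusted p = 0.228) or without replicate 3 (adjusted p = 0.876), and without replicate 1 its adjusted p was 0.00238. Without replicate 2 the share of all tested genes called was 9.45%. With edgeR's negative binomial null at the common dispersion TCP1 had an adjusted p of 0.999, and 0 of 2564 genes were called (136 at an unadjusted p under 0.05). That dispersion, 0.0761, was estimated from the same 3 libraries and so took up the spread under test. The outcome therefore cannot decide whether TCP1 varied. DESeq2's likelihood ratio was run at a dispersion fixed at 1e-08, in effect another Poisson test, and called 1224 genes. Adjusted p-values by edgeR were 0.235 for CCT8, 0.474 for PSMA3, 0.637 for PSMD7 and 0.825 for CCT5, so their spread of counts could not be told from counting noise. When every gene with a count was tested, edgeR called TCP1, PSME4 (adjusted p = 0.000326), PSME1 (adjusted p = 0.00276), PSMD2 (adjusted p = 0.00792) and CCT6A (adjusted p = 0.00913), 5 of 45 members against 20.1% of 14482 genes. The chi-square approximation is rough at counts this low. In that unfiltered test CCT2, CCT4, CCT7, CCT8, PSMB2, PSMD5, PSMD6 and PSME3 were not called. Their adjusted p-values by edgeR lay between 0.0740 and 0.443. The replicate orders given above for these genes could thus not be told from counting noise.

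The gene arrangement on the opposite strand was compared with the counts. Exons of 22 of 56 members (39.3%) shared bases with an exon annotated on the opposite strand, against 34.3% of protein-coding names. These 22 held 89.3% ± 1.11 (SD, n = 3) of member counts, against 76.1% ± 1.28 for the equivalent share over protein-coding names. TCP1 is among them, and without TCP1 the overlapping members held 46.4% ± 1.72 (SD, n = 3). Another 7 members, PSMA3 among them, lay over an opposite-strand gene body with no shared exon, and 27 had no gene opposite. The median member with an opposite exon had 11 counts summed over libraries, against 5 counts for members with no gene opposite. The 7 members with only a gene body opposite had a median of 6 counts. Over protein-coding names the medians were 8 counts with an exon opposite and 1 count with none, where names with only a gene body opposite were included in the latter.

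The TCP1 overlap is with ACAT2, a cytosolic acetyl-CoA acetyltransferase gene. The 3′ ends of both genes overlap on chromosome 6 from 159778659 to 159779055, which is 397 bp, or 8.05% of TCP1 exon and 9.23% of ACAT2 exon. The shared piece holds 8 bp of TCP1 coding sequence and 168 bp of ACAT2 coding sequence. TCP1 received 1147, 1054 and 867 counts, and ACAT2 received 1437, 1647 and 1453 in the same libraries. ACAT2 was thus above TCP1 in each library, and ranked 14th of all names by summed counts. Per kilobase of exon TCP1 had 535 ± 43.5 CPM and ACAT2 had 920 ± 178 CPM, a log2 ratio of TCP1 over ACAT2 of -0.77 ± 0.22 (SD, n = 3 each). Where along either gene the reads fell cannot be read from gene totals.

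Other overlapping pairs had unequal counts under the 2 names. PSMG4 had 0, 0 and 2 counts, against 478, 461 and 299 for SLC22A23, an organic ion transporter family gene that shares 1388 bp of exon with it. PSMD1 had 0, 1 and 0 counts, against 20, 85 and 21 for the serotonin receptor gene HTR2B, which lies inside it and shares 559 bp. PSMD13 had none, against 22, 24 and 17 for the deacetylase gene SIRT3 at its 5′ end. PSMC5 had 6, 8 and 5 counts, against 36, 34 and 22 for the ribosome biogenesis gene FTSJ3, and PSMG2 had 1, 0 and 0, against 40, 19 and 25 for the centriole gene CEP76. The reverse order was seen for PSMC1 with 8, 9 and 11 counts, against 0, 1 and 0 for NRDE2, although 4671 bp or 75.8% of PSMC1 exon is shared. PSME3 with 16, 4 and 5 counts, against none for BECN1, and PSME1 with 18, 4 and 1, against 1, 0 and 0 for EMC9, also exceeded the opposite gene. Over the 13 such pairs in which either gene reached 10 counts in a library, the opposite gene was higher in every library in 9, the member in 3, and the order varied in 1 (PSMG3 and PSMG3-AS1). Most of these pairs entered only through the gene that was then higher, so their order was largely set by the choice of pairs. The same tally over all overlapping genes was not made. PSMA3 has no shared exon, but the noncoding gene PSMA3-AS1 overlaps its body and had 59, 114 and 51 counts, against 40, 29 and 21 for PSMA3. The partners of CCT5 and PSMD7, 2 noncoding genes, matched no gene name in the counts. The same held for 8 of 28 overlaps of members with opposite-strand genes, these 2 included.

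**Figure D4:**
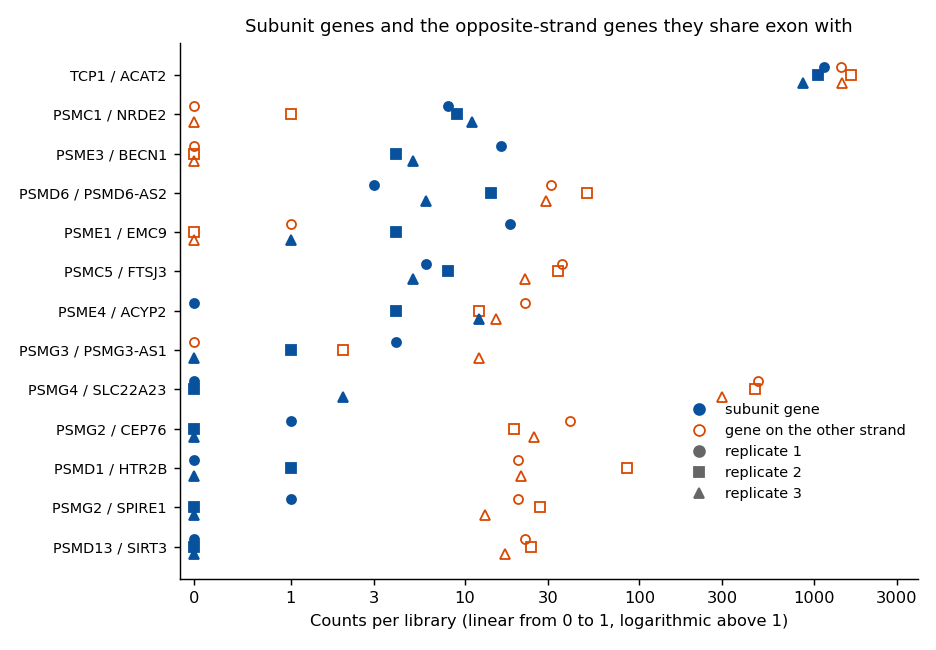
Counts in each library (horizontal axis, linear from 0 to 1 and logarithmic above 1) of a subunit gene (filled) and of the opposite-strand gene sharing exon with it (open), for the 13 pairs with at least 10 counts in a library. The subunit gene is lower in every library in 9 pairs, most of which were included only through the other gene. Both genes are high in TCP1 and ACAT2.

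Many subunit genes have processed pseudogenes, and reads that fit several copies are set aside by the counter in its usual mode; how many were lost for any member was not tested. GENCODE named 41 pseudogenes after 17 of the members, 13 of them after PSMC1. Only names made of the full member symbol followed by P, with or without a number, were matched, so the other 39 members may also have copies. Members with such a name match had a median of 18 counts over the libraries, against 5 counts for the 39 without a match. A count in every library was found for 11 of 17, against 10 of 39. The same split over all genes was not made, and it does not measure lost reads. Of small nucleolar RNAs inside introns of TCP1, SNORA20 had 1, 0 and 0 counts and SNORA29 had none.

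Related genes outside the member list were described as a list. Of 35 partners, 16 were counted in all 3 libraries and 7 in none, beside 29.2% of all names and 33.3% of protein-coding names with a count in every library. Their median was 8 counts over the 3 libraries, against 6 counts for the members, 2 for protein-coding names and 1 for all names. UCHL5, a deubiquitinase of the cap, stood out with 223, 197 and 154 counts, and 451 bp of its exons overlap TROVE2 on the opposite strand. AKIRIN2, which brings proteasomes into the nucleus, had 17, 15 and 11 counts. These were the only partners with 10 counts in every library, and neither passed edgeR's test of variation (adjusted p = 0.524 for UCHL5 and 0.959 for AKIRIN2). ADRM1 and UBE3C, a ubiquitin receptor and a ligase of the proteasome, had no count, and NFE2L1 had 27, 14 and 3. POMP, the maturation factor of the core, had 2, 3 and 3 counts. Of the prefoldin genes, which hand substrates to the chaperonin, PFDN1 had 3, 9 and 1 counts, PFDN2 had 0, 0 and 10, and PFDN6 had none.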

How the data were processed

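Each library had a deposited table of unnormalised integer counts by gene symbol. Its 5 closing summary lines entered neither library sizes nor tests, and they held 90.6% to 91.5% of records as no feature, 6.00% to 7.51% as not unique and 0.0183% to 0.0187% as ambiguous. Per the labels' protocols, total RNA from TRIzol was depleted with Ribo-Zero and made into libraries with the NEBNext Ultra Directional kit; the titles instead say mRNA sequencing. Per the submitters' processing notes, Trimmomatic, TopHat2 (given as 2.2.5), HTSeq 0.11.2 and hg38 were used. No source used here gives the annotation, strand option or read layout.

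With edgeR 4.0.16 (R 4.3.3), counts were scaled to CPM by TMM-adjusted library sizes. Variation between libraries was tested by an intercept-only fit at a dispersion of 0, the deviance against chi-square, adjusted over all genes that had 10 or more counts in each library. Gene models were GENCODE 29, a stand-in for the annotation used to count, and 24626 of 26485 names matched (93.0%), 726 through an older symbol. Merged exons of all transcripts gave lengths, and any shared exonic base counted as overlap. Named genes were all members with at least 10 counts in a library, the leaders of each role, known exchange pairs, members with no count, and opposite-strand partners; the other members given by count, the related genes singled out from their list, PSMA3-AS1, MRPL18, SNORA20 and SNORA29 were chosen after their values were seen. Members and lists were chosen with earlier results of these data known. The test was first run on simulated Poisson counts, with some genes changed in replicate 2 and no other spread between libraries. That setting lacks the wide spread of the real libraries, so it does not show how the test behaves on them. Alternatives included DESeq2 1.42.0. Python 3.11.15 with pandas 2.3.3 and matplotlib 3.10.9 was used for the rest.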

Additional observations from a re-analysis of the deposited data

How the results depend on the processing

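The single call among members, TCP1, was unchanged under DESeq2 size factors, total counts, at least 5 counts, a Pearson statistic, DESeq2's likelihood ratio and library sizes without TSIX, with adjusted p-values between 1.27e-11 and 0.0119. Without a count filter 5 of 45 members and 2914 of 14482 genes were called. Under edgeR's negative binomial null, 0 members (0 at an unadjusted p under 0.05) and 0 of 2564 genes (136 at an unadjusted p under 0.05) were called. Its common dispersion was estimated from the spread being tested, so few calls could be made. The Poisson null called 1 and 1175. DESeq2's likelihood ratio, also close to Poisson at a dispersion fixed at 1e-08, called 1 and 1224. Leaving out each replicate gave 0 to 1 members and 263 to 1093 genes, the lowest without replicate 2; the cause was not tested.

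The share of gene-assigned counts under member names was 0.419% without TSIX in the denominator, 0.0666% without TCP1 and 0.0358% over members with no opposite-strand exon. TSIX alone held a large part of the counts, so all shares of gene-assigned counts depend on it. Leaving it out lowered the normalised library sizes from 437463, 433827 and 303402 to 343632, 342477 and 238251 in replicates 1, 2 and 3. Without TSIX the shares were 0.356% for chaperonin, 0.0309% for cap and 0.0224% for core; without the highest gene of each class they were 0.0171%, 0.0141% and 0.0100% in that order. Leaving out a replicate gave 0.309% to 0.365% for all members. The log2 ratio of cap over core changed sign to -0.42 without the highest gene of each class, -1.20 over members with no opposite-strand exon and -0.25 per kilobase of coding sequence, and ran from -0.12 to 0.13 when a replicate was left out; it was 1.27 for the median over members and 0.39 with no length term, positive in 3 of 3 libraries in both. The mean chaperonin ratios kept their sign under every alternative run, from 0.58 to 5.24 over core and from 0.78 to 4.86 over cap, but the 0.58, over members with no opposite-strand exon, was -0.23 in replicate 2. With at least 10 counts as the level, 5 members were detected in every library in place of 21. The share at members with an opposite-strand exon was 88.2% for overlaps of at least 100 bases, 84.0% for protein-coding opposite genes and 46.4% without TCP1. No paired analysis was possible because the libraries form 1 group. Depth limits most members, since 5 of 56 reached 10 counts in every library.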
